A study of Homo sapiens with 10 samples.

Results

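Imprinted genes were examined in bulk RNA-seq of human embryonic stem cells. The 10 genes were chosen by name (H19, IGF2, MEG3, DLK1, PEG3, PEG10, MEST, NNAT, SNRPN and KCNQ1OT1) and looked up by Ensembl identifier among the 55841 genes of the count table. KCNQ1OT1 was not matched to an identifier and was not analysed here, which left 9 genes. PEG3 had no counts in any library, MEG3 did not pass the filter on low counts, and 7 genes entered the test across both batches. Libraries came from the line that the labels call HES9, while the study's text names its cells WA09, and whether these are the same cells was not resolved. Cells were grown feeder-free in mTESR1 on matrigel. The general population was left unsorted. The HHH fraction was sorted for the highest levels of the surface antigens GCTM2, CD9 and EPCAM. Each population had 5 libraries, with 2 in batch 1 and 3 in batch 2, and the labels do not say whether these were separate cultures, so p-values measure only the spread between libraries, which may be technical. No label of these libraries carries the protein kinase C inhibitor treatment that the deposit's design text mentions.

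An imprinted gene is transcribed mainly from the copy inherited from either the mother or the father, because DNA methylation set in the germ line marks the parental copies differently. H19 and MEG3 are long noncoding RNAs of the maternal copy, and each lies beside a gene of the paternal copy, IGF2 (an insulin-like growth factor) and DLK1 (a transmembrane protein with EGF-like repeats) respectively. PEG3, PEG10, MEST, NNAT and SNRPN are likewise transcribed from the paternal copy. Cultured human pluripotent cells are known to lose imprinting at some of these loci, but gene counts do not separate the parental copies, so allelic expression was not read here.

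Promoter windows of H19, MEG3 and SNRPN are shown because H19 and MEG3 belonged to the genes of low level and SNRPN had the highest. Windows were taken from RefSeq (GRCh38.p14), which held 13 windows for 4 of the genes (H19, MEG3, MEST and SNRPN), and none for IGF2, DLK1, PEG3, PEG10, NNAT and KCNQ1OT1. Each is printed 5′ to 3′ on the strand of its gene, and capitals mark TGCCGC or its reverse complement, the letters bound by the imprint-protecting factor ZFP57 when methylated. H19 is shown at chr11:2001217-2001516 on the minus strand, MEG3 at chr14:100825858-100826157 and SNRPN at chr15:24954737-24954986, both on the plus strand.
H19: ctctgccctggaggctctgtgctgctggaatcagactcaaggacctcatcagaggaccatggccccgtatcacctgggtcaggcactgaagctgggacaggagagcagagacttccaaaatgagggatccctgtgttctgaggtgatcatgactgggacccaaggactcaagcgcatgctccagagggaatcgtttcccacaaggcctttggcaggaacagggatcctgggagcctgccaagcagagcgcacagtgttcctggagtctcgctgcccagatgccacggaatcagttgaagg
MEG3: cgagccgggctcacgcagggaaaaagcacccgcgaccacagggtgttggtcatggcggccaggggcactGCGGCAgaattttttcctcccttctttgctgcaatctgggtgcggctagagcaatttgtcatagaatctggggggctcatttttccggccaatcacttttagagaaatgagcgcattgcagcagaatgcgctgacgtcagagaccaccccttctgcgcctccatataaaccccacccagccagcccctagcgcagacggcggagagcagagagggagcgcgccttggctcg
SNRPN: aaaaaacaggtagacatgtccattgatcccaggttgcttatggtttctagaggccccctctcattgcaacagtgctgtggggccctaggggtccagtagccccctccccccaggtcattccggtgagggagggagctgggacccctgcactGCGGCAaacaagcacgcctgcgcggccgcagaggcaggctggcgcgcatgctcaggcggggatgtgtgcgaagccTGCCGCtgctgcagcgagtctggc
The H19 window of 300 bases held 6 CpG and no match. The MEG3 window of 300 bases held 19 CpG and 1 match, and the SNRPN window of 250 bases before the start held 12 CpG and 2 matches. Where a gene had several windows, the one with the most matches and then the most CpG is shown. The other SNRPN windows held 0, 0 and 1 match, each MEG3 window held 1, and the MEST windows, not shown, held 0 to 3. Over 35116 windows of 300 bases the median was 14 CpG, and 16.7% held the letters on either strand. A window chosen for its matches cannot be set against that share. A part of the CTCF core, GGNGGCAG, was found on either strand in 16.7% of all windows, in 2 of the SNRPN windows and 2 of the MEST windows, and in none of H19 and MEG3. Its form with C at the open position overlaps the complement of TGCCGC. A match is a description of the letters and not evidence of binding.

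Totals ran from 47242595 to 78503395 counts per library, and 3 counts, taken as the floor of detection (counting error only), stood for 0.0460 to 0.0687 CPM. CPM here are relative to the TMM-scaled library size. All 8 pluripotency markers passed the filter, and their summed level ran from 4711 to 6222 CPM in general and 4623 to 6300.02 CPM in HHH libraries. Of 8 neural markers, 4 were lower in HHH (SOX1, LHX5, LIX1 and ZIC1) and none higher, beside 2.34% and 0.637% of all genes. LHX5, a homeobox factor of the early forebrain, fell from 2.80 to 10.4 CPM in general to 0.0519 to 0.366 CPM in HHH libraries. Their summed level, carried largely by NES, differed in direction by batch. In batch 1 it was 201 to 234 CPM in general and 237 to 255 CPM in HHH, and in batch 2 it was 248 to 291 CPM in general and 141 to 203 CPM in HHH. Of 7 trophoblast markers, a lineage rich in imprinted transcripts, 1 was tested, the keratin gene KRT7, and it was lower in HHH (-0.76 on the log2 scale, SE 0.12, adjusted p = 0.0015), their summed level being 5.65 to 10.5 CPM in general and 3.46 to 5.53 CPM in HHH. Of 5 mesenchymal markers tested, THY1 was higher in HHH (0.61, SE 0.08, adjusted p = 0.00045) and COL1A1 lower (-0.94, SE 0.16, adjusted p = 0.0033), and the summed level of all 8 was 263 to 283 CPM in general and 294 to 347 CPM in HHH. Of 2 mesoderm and 2 endoderm markers tested, 0 were called (edgeR, with 1 of each at an unadjusted p under 0.05), and their sums stayed under 4 CPM. Small nuclear, small nucleolar and mitochondrially encoded RNAs took 3.04% to 5.20% of counts in batch 1 and 0.825% to 1.04% in batch 2.

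Per kilobase of exon, SNRPN was the most abundant of these genes at a mean of 247 RPKM, with 223 to 279 RPKM over the 10 libraries. SNRPN encodes SmN, a core protein of the spliceosome. MEST, which encodes a protein of the hydrolase fold, followed at 44.9 RPKM, and PEG10, derived from a retrotransposon, at 24.4 RPKM. NNAT, which encodes the small membrane protein neuronatin, was at 23.6 RPKM. SNRPN was above MEST, and MEST above PEG10, in every library, with no overlap of their ranges. PEG10 and NNAT overlapped: NNAT was the higher in all 4 libraries of batch 1, and PEG10 in 5 of 6 in batch 2. H19 came next at 0.438 RPKM, 53.9-fold below NNAT, then DLK1 at 0.157, IGF2 at 0.0346 and MEG3 at 0.00717 RPKM. The ranges of neighbours in this lower part of the order overlapped.

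**Figure D1:**
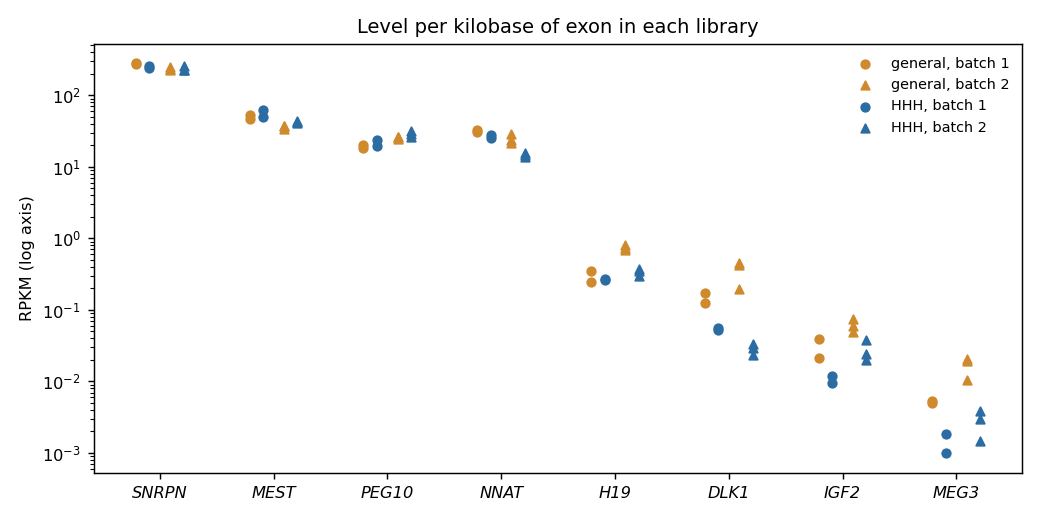
RPKM (log axis) of 8 imprinted genes in each of the 10 libraries, circles for batch 1 and triangles for batch 2, orange for general and blue for HHH. SNRPN, MEST, PEG10 and NNAT sit far above H19, DLK1, IGF2 and MEG3, and PEG3, with 0 counts, cannot be drawn.

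PEG3, a zinc finger gene on chromosome 19, had 0 counts in all 10 libraries, which allows up to 0.0687 CPM at the lowest effective depth. Lengths were the union of annotated exons, and that of MEG3 (23224 bases) is far longer than that of H19 (3462 bases), so its level per kilobase is diluted. Exons shared with other genes make some levels uncertain, since the use of strand and the treatment of shared reads are not given in the sources used here. INS-IGF2 and other genes cover 26.9% of the IGF2 exons, SNHG14 and a readthrough gene 20.01% of those of SNRPN, BLCAP on the other strand 6.4% of those of NNAT, COPG2 on the other strand 4.78% of those of MEST, and SGCE on the other strand 3.27% of those of PEG10.

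Of the 7 genes tested, 3 were lower in HHH than in general (DLK1, IGF2 and H19) and none was higher. DLK1 passed the filter only through its general libraries, where it is high, which limits what its place in this count shows. A call required more than 1.5-fold and an adjusted p below 0.05. Over all 23552 genes tested, 2.98% were called, 2.34% as lower and 0.637% as higher. The median log2 fold change was -0.55 over the 7 genes and 0.02 over all genes. NNAT also fell, at less than 1.5-fold, while SNRPN, PEG10 and MEST did not pass the test. This fit did not pair libraries by number. With libraries of the same number within a batch paired, DLK1, H19 and NNAT were called and IGF2 was not. Both genes of the DLK1 and MEG3 pair, and both of the IGF2 and H19 pair, thus had their lower mean in HHH. In bulk libraries, fewer cells that express a gene and less of its RNA per cell cannot be told apart.

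**Figure D2:**
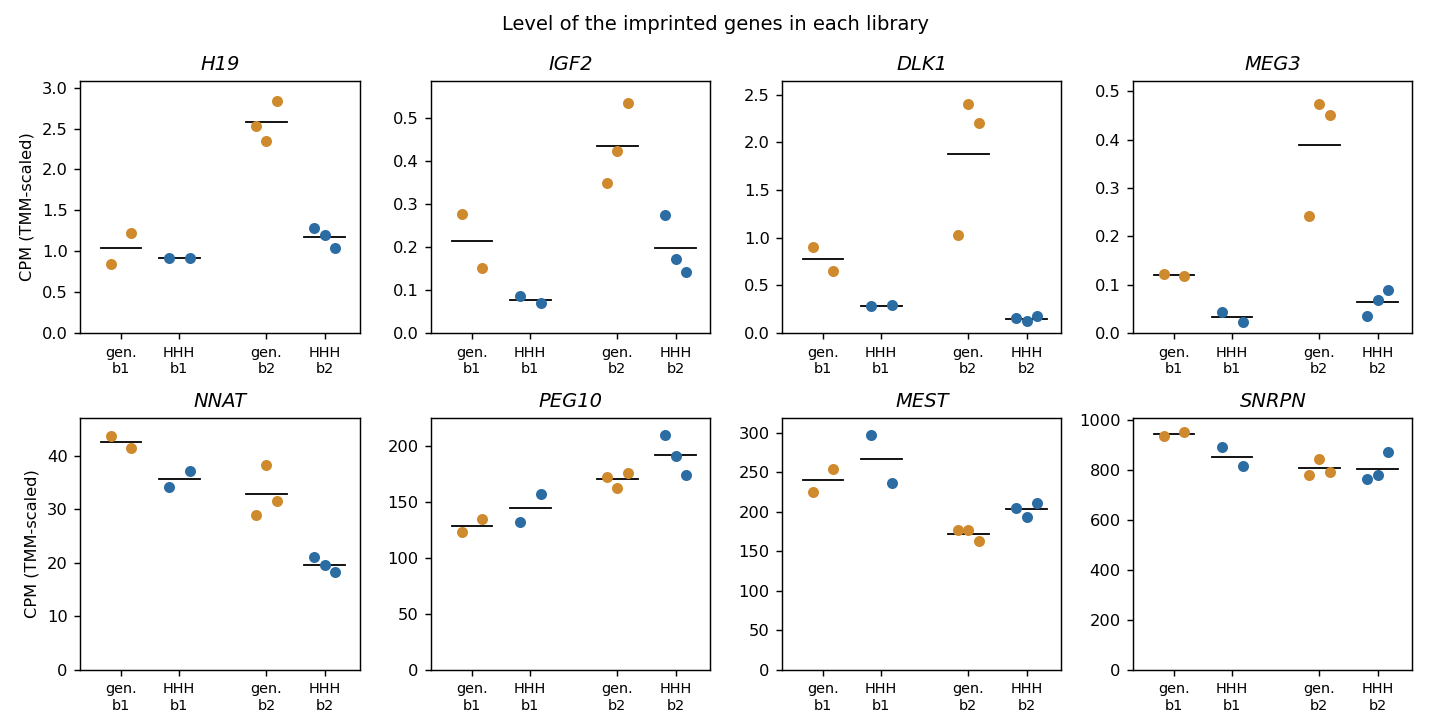
CPM of 8 imprinted genes, each point a library and each black line the mean of a population (gen., general) in batch 1 (b1) or batch 2 (b2). DLK1 and MEG3 are lower in every HHH library than in any general library, and H19 separates the populations in batch 2 but not in batch 1.

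DLK1 (ENSG00000185559, chr14:100725705-100738224, plus strand) showed the largest difference of the genes tested. General libraries had 0.904 and 0.654 CPM in batch 1 and 1.02, 2.40 and 2.20 CPM in batch 2. HHH libraries had 0.279 and 0.298 CPM in batch 1 and 0.155, 0.121 and 0.177 CPM in batch 2. Every HHH library was below every general library. The general mean was 1.44 ± 0.804 CPM and the HHH mean 0.206 ± 0.0781 CPM (SD, n = 5 each). The log2 fold change was -2.77 (SE 0.38, adjusted p = 0.00051, edgeR quasi-likelihood test), or 6.83-fold lower. The libraries of HHH held only 7 to 13 counts. DLK1 thus passed the filter only through its general libraries, where it is high, which limits what its p-values show. With no filter on low counts the log2 fold change was -2.76. Fitted on batch 2 only, the log2 fold change of DLK1 reached -3.63 (SE 0.36, adjusted p = 3.6e-05), beside -1.44 on batch 1 only (SE 0.39, adjusted p = 0.19). LHX5, LIX1 and ZIC1 were, like DLK1, lower in every HHH library than in any general library, while the summed level of the neural markers was higher in HHH in batch 1. The part of neural cells in the level of DLK1 was not tested.

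MEG3 (ENSG00000214548, chr14:100779410-100861031, plus strand), the noncoding RNA downstream of DLK1, was close to the floor. Counts were 8 and 7 in general batch 1, 2 and 1 in HHH batch 1, 14, 27 and 27 in general batch 2, and 2, 4 and 5 in HHH batch 2. In CPM this was 0.117 to 0.474 in general and 0.0229 to 0.0884 in HHH, with no overlap. Summed over libraries, 83 counts in general and 14 in HHH gave a ratio of 5.21 (95% exact interval 2.94 to 9.94, counting error only). The ratio was 3.62 in batch 1 (1.02 to 19.5) and 6.11 in batch 2 (3.21 to 12.8). MEG3 passed the filter only in batch 2 alone and only through its general libraries, where it is high, so no test of it is given.

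IGF2 (ENSG00000167244, chr11:2129112-2158391, minus strand) was low throughout. General libraries had 0.276 and 0.151 CPM in batch 1 and 0.347, 0.421 and 0.534 CPM in batch 2. HHH libraries had 0.0858 and 0.0687 CPM in batch 1 and 0.275, 0.173 and 0.141 CPM in batch 2. The populations did not overlap within either batch but did across batches. The log2 fold change was -1.21 (SE 0.29, adjusted p = 0.025, edgeR), or 2.32-fold lower, on 3 to 16 counts per HHH library. With the replicate block, in which libraries of the same number within a batch are paired, it was -1.09 (adjusted p = 0.073). In batch 1, general replicate 1 and HHH replicate 3 have no partner, so they add nothing to the population difference of that fit. The adjusted p also exceeded 0.05 when any of 6 libraries was left out. It was 0.053 without general batch 1 replicate 1, 0.052 without HHH batch 1 replicate 2 and 0.081 without HHH batch 2 replicate 2. It was 0.070 without HHH batch 2 replicate 3, 0.054 without general batch 2 replicate 2 and 0.085 without general batch 2 replicate 3. IGF2 did not pass the filter in batch 1 alone, and in batch 2 alone its log2 fold change was -1.14 (SE 0.34, adjusted p = 0.043). There it passed the filter only through its general libraries, where it is high, which limits what that p-value shows.

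H19 (ENSG00000130600, chr11:1995166-2004552, minus strand) differed between the populations in batch 2. There the general libraries had 2.53, 2.35 and 2.83 CPM and the HHH libraries 1.29, 1.19 and 1.04 CPM. In batch 1 the general libraries had 0.843 and 1.22 CPM and the HHH libraries 0.922 and 0.916 CPM, so that HHH lay between the general libraries. Over both batches the general mean was 1.96 ± 0.872 CPM and the HHH mean 1.07 ± 0.165 CPM (SD, n = 5 each), and the log2 fold change was -0.79 (SE 0.19, adjusted p = 0.024, edgeR), or 1.73-fold lower. It was -1.14 (SE 0.16, adjusted p = 0.00073) in batch 2 alone and -0.17 (SE 0.31, adjusted p = 0.86) in batch 1 alone. The adjusted p over both batches exceeded 0.05 when any library of batch 2 was left out: 0.076, 0.085 and 0.068 without HHH replicates 1, 2 and 3, and 0.067, 0.058 and 0.072 without general replicates 1, 2 and 3.

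NNAT (ENSG00000053438, chr20:37521206-37523690, plus strand) was lower in all 5 HHH libraries than the general mean of their batch. General libraries had 43.6 and 41.4 CPM in batch 1 and 28.9, 38.3 and 31.5 CPM in batch 2. HHH libraries had 34.2 and 37.0 CPM in batch 1 and 21.1, 19.6 and 18.3 CPM in batch 2. The populations did not overlap within a batch. The log2 fold change was -0.55 (SE 0.10, adjusted p = 0.0059, edgeR), or 1.46-fold lower, just under the fold required for a call. It was -0.75 (SE 0.11, adjusted p = 0.00068) in batch 2 alone and -0.26 (SE 0.12, adjusted p = 0.40) in batch 1 alone. With the replicate block the log2 fold change was -0.62 (adjusted p = 0.0080), past 1.5-fold.

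PEG10, MEST and SNRPN did not pass the test between the populations. PEG10 (ENSG00000242265, chr7:94656325-94669695, plus strand) averaged 154 ± 23.7 CPM in general libraries and 173 ± 30.3 CPM in HHH ones (SD, n = 5 each), with a log2 fold change of 0.17 and a 95% interval of 0.004 to 0.33 (adjusted p = 0.23). MEST (ENSG00000106484, chr7:130486171-130506465, plus strand) was at 199 ± 38.9 and 229 ± 41.5 CPM, a log2 fold change of 0.21 (0.04 to 0.37, adjusted p = 0.15). Without HHH batch 1 replicate 3 the adjusted p of MEST was 0.038 at a log2 fold change of 0.26. SNRPN (ENSG00000128739, chr15:24823637-24978723, plus strand) was at 859.7 ± 79.03 and 822 ± 55.6 CPM, a log2 fold change of -0.06 (-0.22 to 0.10, adjusted p = 0.69, edgeR). For these genes the intervals, which are not adjusted for the number of genes, leave out a change of 1.5-fold in either direction.

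Within batches the calls came from batch 2. Apart from MEG3, 4 of 7 genes were called there and all were lower in HHH (DLK1, IGF2, H19 and NNAT), where 4.9% of all genes were called and 3.93% as lower. DLK1 and IGF2, like MEG3, passed the filter of batch 2 only through their general libraries, where they are high. This limits what their calls in batch 2 show. In batch 1, with 2 libraries a population, 0 of 6 genes tested were called by edgeR (1 had an unadjusted p under 0.05), where 0.573% of all genes were. The difference of the differences was tested as an interaction of batch and population, and 0 of 7 genes passed an adjusted p under 0.05, while 0.777% of all genes did. Unadjusted, 3 genes had p under 0.05. The interaction was -2.19 for DLK1 (SE 0.61, adjusted p = 0.11), -0.97 for H19 (SE 0.31, adjusted p = 0.14) and -0.49 for NNAT (SE 0.16, adjusted p = 0.15), on the log2 scale and in the direction of a larger drop in batch 2. That of DLK1 passed (adjusted p = 0.038) when general batch 2 replicate 1 was left out, the library of batch 2 general with the least DLK1, and with no filter on low counts (adjusted p = 0.0026). DESeq2, in which the adjusted p of DLK1 and of IGF2 is missing, also called 0 of these genes for the interaction.

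**Figure D3:**
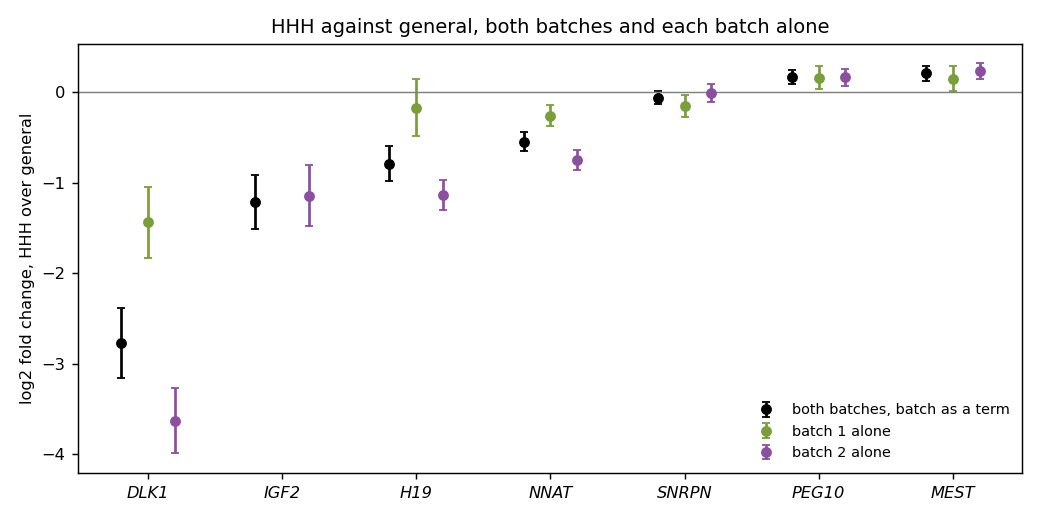
log2 fold change of HHH over general (points, with SE as bars) for the 7 genes tested, in both batches together, in batch 1 alone and in batch 2 alone. Libraries are not paired by number in these fits. DLK1, H19 and NNAT lie lower in batch 2 than in batch 1, and SNRPN, PEG10 and MEST lie near 0 in each. IGF2 has no point for batch 1, where it did not pass the filter.

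Between batches, with the population as a term, 3 of 7 genes were called, H19 and IGF2 higher and NNAT lower in batch 2. Over all genes 21.5% were called, 12.5% as higher and 8.92% as lower, so batch differences were common throughout the transcriptome. H19 was 1.83-fold higher in batch 2 (log2 fold change 0.88, SE 0.20, adjusted p = 0.0026, edgeR), by 1.35 in the general libraries (adjusted p = 0.0011) and by 0.37 in HHH (adjusted p = 0.23). IGF2 was 2.15-fold higher (1.10, SE 0.31, adjusted p = 0.0094), but it was not tested between batches in either population alone. NNAT was 1.53-fold lower (-0.61, SE 0.11, adjusted p = 0.00032).

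PEG10 and MEST moved in opposite directions between batches and by less than 1.5-fold. PEG10 had 123, 135, 132 and 157 CPM in batch 1 and 163 to 210.4 CPM in batch 2, with no overlap (log2 fold change 0.41, SE 0.08, adjusted p = 0.00083, edgeR). MEST had 225 to 297 CPM in batch 1 and 162 to 212 CPM in batch 2, also with no overlap (-0.44, SE 0.08, adjusted p = 0.00049). DLK1 did not pass the test (0.63, SE 0.39, adjusted p = 0.20), but in the general libraries alone it was higher in batch 2 by 1.29 (adjusted p = 0.015). SNRPN did not pass it either (-0.16, SE 0.08, adjusted p = 0.10), and its sign turned with no scaling beyond library size (0.18, adjusted p = 0.026), a setting that raised the median of all genes to 0.34. Relative to that median SNRPN stayed lower. With that setting PEG10 was higher in batch 2 by 0.74 (adjusted p = 3.9e-05), past 1.5-fold, and the values of MEST and NNAT were -0.10 (adjusted p = 0.24) and -0.28 (adjusted p = 0.056).

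Batch was the largest source of the spread over the 10 libraries for 5 of the 7 genes, and the population for DLK1 and IGF2. The share of all genes for which batch is the largest source was not computed. With 21.5% of all genes called between batches and 2.98% between populations, that count is not read as a trait of imprinted genes. As a share of the sum of squares of log2 CPM, the population took 81.8% for DLK1 and 47.8% for IGF2, while batch took 0.386% and 38.4%. Batch took 72.2% for PEG10, 69.5% for MEST, 50.5% for SNRPN, 48.1% for NNAT and 43.8% for H19. The population by batch term took 15.2% for H19 and 12.2% for DLK1, and at most 10.2% for the others. Libraries of the same population and batch took 31.2% for SNRPN, whose total spread was small, and 5.66% to 15.5% for the others. The biological coefficient of variation, edgeR's estimate of the spread left by the fit, was 0.348 for DLK1, above 97.7% of 2349 genes of similar level. That fit had batch and population as terms but not their interaction. The estimate therefore also holds any population difference that varied by batch, which for DLK1 took more than its libraries within a population and batch. It was 0.0889 for SNRPN, 0.0936 for PEG10, 0.0950 for MEST, 0.121 for NNAT, 0.184 for H19 and 0.188 for IGF2. Genes of similar level had medians of 0.100, 0.0984, 0.0995, 0.0997, 0.160 and 0.216 in that order. NNAT and H19 thus lay above the median of their level, and IGF2 below it. Over all genes tested the median was 0.127, but the estimate depends on level. Among general libraries of batch 2, DLK1 alone ran from 1.02 to 2.40 CPM.

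**Figure D4:**
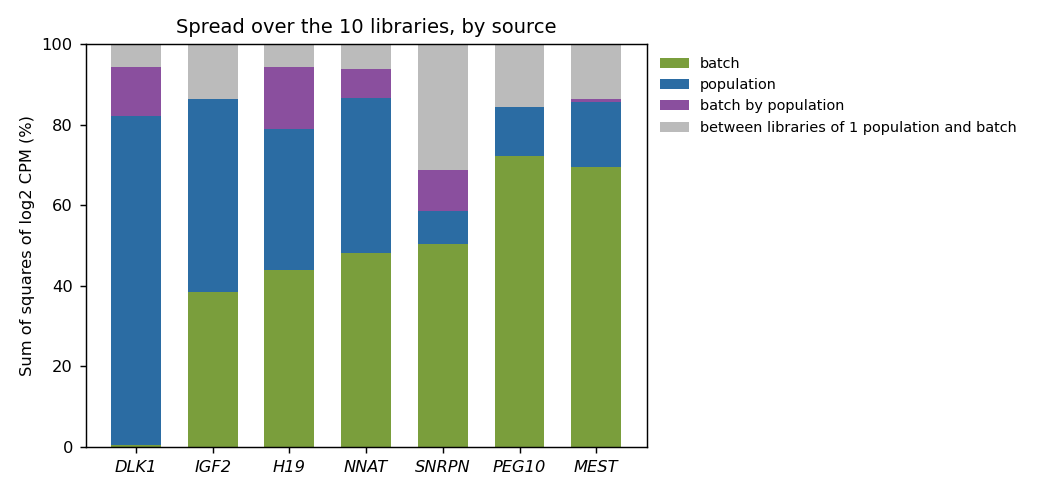
Share of the sum of squares of log2 CPM over 10 libraries (percent, bars add to 100) that goes with batch, population, their interaction and the libraries within them, for 7 genes. Population takes 81.8% for DLK1, and batch takes 72.2% for PEG10.

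Other genes of the imprinted clusters were taken from fixed lists. Over all genes, 2.98% were called between the populations, and 12.5% were called higher and 8.92% lower in batch 2. Of 13 other paternally expressed genes tested, 0 were called between the populations (edgeR and DESeq2, with 2 at an unadjusted p under 0.05), and 5 were higher and 1 lower in batch 2. Their median log2 fold change was -0.09 for HHH and 0.16 for batch 2. Of 15 other maternally expressed genes tested, 0 were called between the populations (edgeR and DESeq2, with 2 at an unadjusted p under 0.05), and 1 was higher and 2 lower in batch 2. CDKN1C, a cell cycle inhibitor gene near the IGF2 and H19 cluster, passed the adjusted p alone, at 10.7 CPM in general and 8.36 CPM in HHH (log2 fold change -0.35, SE 0.10, adjusted p = 0.047, edgeR). TFPI2, a protease inhibitor near PEG10, did so in the other direction, at 6.94 and 10.4 CPM (0.57, SE 0.13, adjusted p = 0.015). With the replicate block 1 gene of this list was called, as higher in HHH. CDKN1C, TFPI2 and the genes of the next paragraph other than INPP5F, KCNQ1, NLRP7 and the SNORD116 copies were named after their values were seen.

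Neighbours of the 10 genes are given by cluster. At 15q11, SNHG14, the long transcript that runs on from SNRPN, was at 681 CPM in general and 581 CPM in HHH (log2 fold change -0.23, adjusted p = 0.069), and UBE3A at 149 and 162 CPM (0.12, adjusted p = 0.32). NDN, paternally expressed, had 36.4 to 41.5 CPM in batch 1 and 24.4 to 30.3 CPM in batch 2 (-0.51, SE 0.07, adjusted p = 4e-05). At the PEG10 cluster, SGCE, which shares its promoter region with PEG10, was at 10.4 and 9.28 CPM, and its batch difference did not pass the test (-0.07, SE 0.13, adjusted p = 0.67). At 14q32, RTL1, MEG8, MEG9 and DIO3 did not pass the filter, and MEG8 had 0.100 to 0.184 CPM in general and 0 to 0.0214 CPM in HHH, all HHH libraries being under the floor. The largest batch difference in the lists was that of INPP5F, a phosphoinositide phosphatase with an imprinted isoform, at 24.4 to 28.9 CPM in batch 1 and 152.8 to 173 CPM in batch 2 (2.63, SE 0.07, adjusted p = 1e-11). KCNQ1, a potassium channel gene, rose by 1.21 in batch 2 (SE 0.20, adjusted p = 0.00021).

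SNORD116 copies are box C/D small nucleolar RNAs cut from introns of the transcript that follows SNRPN. Of 24 tested, 3 were higher in HHH (SNORD116-11, SNORD116-25 and SNORD116-30) and none lower, beside 0.637% and 2.34% of all genes. In batch 2, 17 were lower and none higher, beside 8.92% and 12.5% of all genes. SNORD116-11 was at 0.304 CPM in general and 0.736 CPM in HHH (log2 fold change 1.13, SE 0.30, adjusted p = 0.037, edgeR), HHH libraries having 1.22 and 1.28 CPM in batch 1 but 0.283 to 0.567 CPM in batch 2. In batch 1 alone 1 copy was called and in batch 2 alone 0 were. No copy was called when general batch 1 replicate 1 or 2, HHH batch 1 replicate 2, HHH batch 2 replicate 1 or general batch 2 replicate 2 was left out, and with library size alone. Only 1 was with the replicate block, as without HHH batch 1 replicate 3, HHH batch 2 replicate 2 or general batch 2 replicate 3, and 5 were without HHH batch 2 replicate 3. SNORD116-23 fell by 1.22 in batch 2 (SE 0.17, adjusted p = 6.5e-05), from 2.04 to 3.13 CPM to 0.831 to 1.32 CPM. The count of 17 was 5 with library size alone, 7 in the general libraries alone and 10 without HHH batch 1 replicate 2. The share of all small and mitochondrial RNA given above fell between batches in the same direction, and its part in this was not tested. The 45 copies of SNORD115 and the 37 of SNORD113 and SNORD114, snoRNAs of 15q11 and 14q32, did not pass the filter. The copies are near-identical, so counts of single copies are uncertain.

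**Figure D5:**
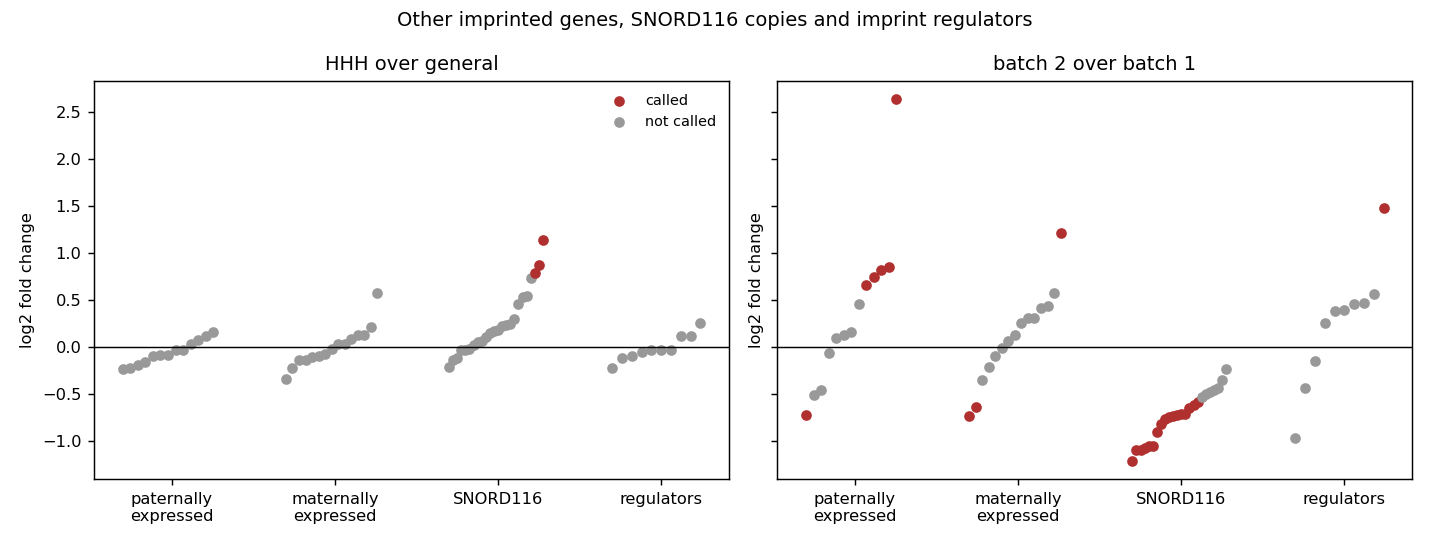
log2 fold change of each tested gene of 4 lists, HHH over general at left and batch 2 over batch 1 at right, red where called. Between the populations only 3 SNORD116 copies are called, and between batches 17 SNORD116 copies fall and INPP5F stands out at 2.63.

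Of the genes that protect or read imprints, none passed the test between the populations. Of 10 tested, 0 were called (edgeR, and also DESeq2), with 0 at an unadjusted p under 0.05. ZFP57 was at 0.869 CPM in general and 0.745 CPM in HHH (log2 fold change -0.22, adjusted p = 0.58), ZNF445 at 53.0 and 49.6 CPM, TRIM28 at 697 and 771 CPM, DNMT1 at 145 and 133 CPM and CTCF at 83.5 and 89.6 CPM, and these genes were named after their values were seen. Between batches NLRP7 was called, 1.48 higher in batch 2 on the log2 scale (SE 0.27, adjusted p = 0.00047), while TRIM28 (-0.44, adjusted p = 0.0027), DNMT1 (0.46, adjusted p = 0.0021) and CTCF (0.38, adjusted p = 0.0018) passed the adjusted p but not the fold. With library size alone, which raised the median of all genes to 0.34, 7 of 10 were called higher in batch 2.

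The gene whose centred log2 CPM lay nearest to that of each gene called was found among 16970 candidates over 10 libraries. Candidates had a symbol and a mean of at least 1 CPM. For H19 it was CELSR2, an adhesion receptor, at a root mean square difference of 0.17 beside an SD of 0.61 for H19 itself. For IGF2 it was SEMA3B, a secreted semaphorin, at 0.24 beside 0.77. For DLK1 it was IRX2-DT, a noncoding transcript beside the homeobox gene IRX2, at 0.42 beside 1.38. For NNAT it was SHISA2 at 0.12 beside 0.44. None of these lies on the chromosome of its imprinted gene. IGF2 and MEG3, both under the level required, could not be found for H19 and DLK1, so nothing is read from this for those pairs.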

How the data were processed

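RNA was sequenced from 10 libraries of an embryonic stem cell line. The authors deposited whole fragment counts per Ensembl gene, without normalization, and a log2 score table whose name states TMM scaling and RPKM. Batch means per gene are equal in that table, so a batch term had been removed, and it served only as an alternative. The submitters' processing notes name CASAVA 1.8.2, R 3.2.2, limma 3.26.9 and GRCh37. The aligner and the counting tool are not given in the sources used here. Identifiers were matched to GENCODE 44 (88.5% matched), and coordinates are in GRCh38.

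Genes were kept by filterByExpr (minimum count 10), scaled by TMM, and tested two-sided by the edgeR 4.0.16 quasi-likelihood test in R 4.3.3 with batch and population as terms and Benjamini-Hochberg adjustment over 23552 genes. A call required more than 1.5-fold and an adjusted p below 0.05. Tested on simulated data, the comparison of populations recovered 86.5% of the 193 genes changed 2-fold that passed the filter, of 200 changed, among 23264 genes. It also called 7 unchanged genes. The simulated counts held no batch difference, unlike the data. RPKM used the union of exons. Intervals are 95% intervals of the fitted log2 fold change.

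Named were the 10 genes, and of the other lists the called genes of largest change, at most 6 a comparison. The genes and lists were chosen with earlier results of these data known. In batch 2, libraries sharing a number deviated together (r = 0.239, 0.143 and 0.113, beside -0.126 to -0.005 for unlike numbers). In batch 1, with 2 libraries a population, r could only be 0.113 or -0.113. There general replicate 1 and HHH replicate 3 had the same 0.113 as the libraries numbered 2, so batch 1 could not decide. The numbers were taken to pair libraries, but the main fit did not pair them. The replicate block is given where it changes a call. Replicates differed by more than counting noise (chi-square 6.31 to 54.8 times its degrees of freedom). Alternatives were other scalings, filters, thresholds, DESeq2 1.42.0, limma 3.58.1 (voom, or the deposited values), the replicate block, no batch term, each batch or population alone, and each library left out. Those for the lists and the ratio of MEG3 were added after the data had been seen. UHRF1 and KCNQ1OT1 are not analysed here.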

Additional observations from a re-analysis of the deposited data

Results flagged for a closer look

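In 32 sets of 5 values of a population, checked for the genes named, 0 had a gap over range above 0.71, but each set holds both batches, and where the batches lie apart a single library could not reach that value. PHLDA2, a maternally expressed growth regulator near the IGF2 and H19 cluster, had a difference between the populations that itself differed between batches (interaction -1.70 on the log2 scale, SE 0.37, adjusted p = 0.0497 by edgeR). It was higher in HHH in batch 1, with 0.815 and 0.7097 CPM against 0.414 and 0.285 CPM in general, and lower in HHH in batch 2, with 0.548 to 0.640 CPM against 0.816 to 0.950 CPM.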

How the results depend on the processing

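The call of DLK1 as lower in HHH held under each alternative that tested it except batch 1 alone. In the main fit DLK1 passed the filter only through its general libraries, which limits what its calls show. None of the 7 genes tested reversed between the populations under these alternatives. In place of 3 genes called between the populations, 1 was called with no batch term, 1 with at least 1 CPM in 5 libraries (which leaves fewer genes to test) and 0 in batch 1 alone (fewer libraries), and 1 to 4 with each library left out. Between batches, in place of 3, the count was 5 by the adjusted p alone, 1 at a fold over 2 and 1 in the HHH libraries alone. IGF2 and DLK1 were not tested in the HHH libraries alone. For the interaction, in place of 0, it was 1 with no filter and 0 to 1 with each library left out. SNRPN reversed between batches with library size alone (0.18), the setting that raised the median of all genes. The replicate block gave 3 genes (DLK1, H19 and NNAT past both thresholds) and 819 calls over all genes in place of 701, and the cause was not tested. Among the 7 genes pairing changed the calls of IGF2 and NNAT, and in the other lists 1 maternally expressed gene was gained and the SNORD116 copies called went from 3 to 1. The deposited log2 values shifted the median of all genes to -0.12 and called 903 genes. Depth limits MEG3, IGF2 and DLK1, whose HHH libraries hold 1 to 16 counts.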
